A study of Homo sapiens with 12 samples.

Results

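The long intergenic noncoding RNAs (lincRNAs) described here are the genes of type lincRNA in GENCODE 29 that were expressed in SK-BR-3 breast cancer cells or in their epirubicin-resistant derivative. They were chosen by their measured level: a gene was taken when its mean FPKM (a read count divided by exon length in kilobases and by library size) was 2 or more in at least 1 of 4 groups, each the mean of 3 libraries. PVT1 and DSCAM-AS1 were left out by the same rule. This gave 281 genes, out of 7629 lincRNAs and 58735 genes of all types in both tables. Of the 7629 lincRNAs, 4196 had at least 1 read in at least 1 library. At the same level there were 10136 protein-coding genes. Because the group means chose the genes, their levels are given as a description, and counts of changed lincRNAs are not evidence that lincRNAs as a class responded. The lincRNAs just inside the threshold were LINC01176, MIR4458HG and AC104986.2, with highest group means of 2.02, 2.02 and 2.02 FPKM. Those just outside were LINC01186, AC015660.1 and AP001476.3, at 1.99, 1.98 and 1.97 FPKM.

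The parental line, SK-BR-3, comes from a human breast cancer with amplified ERBB2, and SK/EPI was derived from it by stepwise exposure to rising amounts of epirubicin, an anthracycline. In the other groups SK/EPI cells had been transfected for 48 h, with Lipofectamine RNAiMax, either with siRNA against BCRP, the efflux transporter that ABCG2 encodes (siBCRP), or with the control siRNA (siControl). All 4 groups therefore descend from SK-BR-3, and resistance is represented by 1 resistant line. SK/EPI was compared with SK-BR-3 in one table, and siBCRP with siControl in another. Each comparison was tested only within its own table.

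A lincRNA is transcribed by RNA polymerase II from a locus that lies mostly outside protein-coding genes, and like a messenger RNA it is capped, usually spliced and often polyadenylated. Few lincRNAs have a known function. Those that do act as scaffolds in the nucleus, as decoys for RNA-binding proteins, or as hosts whose introns or exons are processed to small nucleolar RNAs (snoRNAs) and microRNAs. Others are transcribed from the promoter or the 3' flank of a coding gene.

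Each library held between 15830381 and 20545811 reads on genes, and mitochondrial genes held 3.58% to 5.38% of them. ABCG2 was at 0.0750, 0.0220 and 0.0520 FPKM in SK-BR-3 and at 33.9, 35.9 and 32.7 FPKM in SK/EPI. It was at 32.5, 32.7 and 33.7 FPKM in siControl and at 2.84, 3.47 and 2.91 FPKM in siBCRP, so both comparisons separated without overlap in the direction of the labels. The markers used for ERBB2-amplified epithelial cells, ERBB2, GRB7, EPCAM, KRT8, KRT18 and KRT19, were above 40 FPKM in all 12 libraries. Mean ERBB2 was 659 FPKM in SK-BR-3 and 133 FPKM in SK/EPI. GRB7 was at 112 and 45.5 FPKM and KRT19 at 1651 and 509 FPKM in the same order. Means of EPCAM, KRT8 and KRT18 were higher in SK/EPI. VIM, COL1A2 and PTPRC stayed at or below 0.0669 FPKM, CD3E and PECAM1 at or below 0.506 FPKM, and COL1A1 at or below 1.60 FPKM. The RNA was poly-A selected with a kit that, as named, does not mark strand. Non-polyadenylated forms were therefore captured incompletely, if at all, and reads of overlapping genes on opposite strands cannot be told apart. In these cultures, fewer cells expressing a lincRNA and less of it per cell cannot be told apart either.

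Sequences are shown for 2 kinds of member whose letters are part of what they do. The first are hosts of microRNAs. RefSeq (GRCh38.p14) places at least 23 mature microRNAs on the same strand within the gene bodies of at least 10 of the 281 lincRNAs. Not every chromosome was searched, so these counts are minimum values. The microRNAs themselves were not measured. The main products of 5 of the hosts are printed 5' to 3' with the seed, bases 2 to 8, in capitals.
hsa-miR-200c-3p (MIR200CHG, chr12:6963742-6963764, plus strand): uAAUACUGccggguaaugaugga
hsa-miR-141-3p (MIR200CHG, chr12:6964155-6964176, plus strand): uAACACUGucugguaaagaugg
hsa-miR-30c-5p (LINC00472, chr6:71377003-71377025, minus strand): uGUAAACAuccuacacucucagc
hsa-miR-30a-5p (LINC00472, chr6:71403595-71403616, minus strand): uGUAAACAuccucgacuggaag
hsa-miR-210-3p (MIR210HG, chr11:568112-568133, minus strand): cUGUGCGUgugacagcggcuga
hsa-miR-22-3p (MIR22HG, chr17:1713914-1713935, minus strand): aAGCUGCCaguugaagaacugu
hsa-miR-503-5p (MIR503HG, chrX:134546371-134546393, minus strand): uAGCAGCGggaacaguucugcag
The 2 microRNAs of LINC00472 share the seed GUAAACA, and no other pair among the 23 shared a seed.

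The second is NORAD, a cytoplasmic RNA that binds the RNA-binding protein PUM2 through copies of a short motif. The transcript of 5339 bases held the letters TGTANATA 15 times, the most of any of the 281 longest transcripts. NEAT1 followed with 6 copies in 22743 bases, and 19 of 281 lincRNAs (6.76%) held the motif at all. The share was 9.48% over all lincRNAs and 33.5% over protein-coding genes at 2 FPKM or more. These shares depend on transcript length. Per kilobase the motif occurred 0.1001 times in the 281 lincRNAs, 0.1005 times in all lincRNAs and 0.128 times in the coding genes. A stretch of NORAD with 2 copies (bases 1134 to 1253, chr20:36049708-36049827, minus strand, GENCODE 29) is printed with the motif in capitals.
NORAD: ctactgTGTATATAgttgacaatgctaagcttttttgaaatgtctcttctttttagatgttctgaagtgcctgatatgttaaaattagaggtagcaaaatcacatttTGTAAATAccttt

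Most of the 281 lincRNAs were weakly expressed, with a median highest group mean of 3.51 FPKM against 10.6 FPKM for the protein-coding genes. Only 88 reached 5 FPKM in a group, 40 reached 10 FPKM and 5 reached 50 FPKM. They were short, with a median merged exon length of 921 bases against 5021.5 for the coding genes. A single exon was annotated for 78 of them (27.8%), against 16.2% of all lincRNAs. Of the 281, 169 carry only a clone-based name. They lay on 22 autosomes and the X chromosome, with most on chromosomes 1 and 17 (26 each) and 7 (24).

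The level of 81 lincRNAs was 2 FPKM or more in all 4 groups. In SK-BR-3 137 genes reached it, in SK/EPI 177, in siControl 210 and in siBCRP 185. There were 39 that reached it in SK-BR-3 and in none of the SK/EPI groups, and 62 that were under it in SK-BR-3 and reached it in all 3 SK/EPI groups. Reads on the 281 genes made up 0.348% to 0.381% of reads on genes in SK-BR-3 and 0.487% to 0.513% in SK/EPI. They made up 0.675% to 0.687% in siControl and 0.604% to 0.616% in siBCRP. NEAT1, NORAD and MALAT1 alone took 55.4% to 65.9% of these reads.

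NORAD had the highest level. It was at 117, 113 and 119 FPKM in SK-BR-3, 201, 199.6 and 196 FPKM in SK/EPI, 182, 183 and 185 FPKM in siControl, and 173, 180.4 and 175 FPKM in siBCRP. The SK-BR-3 libraries were below all others, and NORAD rose in SK/EPI by 0.76 ± 0.03 (log2 fold change ± SE on the log2(FPKM + 1) scale, as throughout; limma, adjusted p = 3.3e-07). The 3 siBCRP libraries were below the 3 of siControl, by 0.06 ± 0.02, which did not pass the test (limma, adjusted p = 0.087) but passed with limma voom on recovered reads (adjusted p = 0.0042). NORAD shares a near-identical stretch of 1036 bases with LINC02211, and how the authors' counting treated reads that match both is not given in the sources used here. Genes for protein partners of NORAD differed among themselves. PUM2 and SAMHD1 rose in both comparisons, by 0.55 and 1.52 in SK/EPI and by 0.37 and 0.77 after siBCRP. RBMX fell by 0.13 after siBCRP, and its difference of 0.06 in SK/EPI did not pass.

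MALAT1, which collects in nuclear speckles, and NEAT1, the RNA around which paraspeckles form, were also among the highest. MALAT1 was at 78.9, 57.0 and 58.6 FPKM in SK-BR-3, 84.3, 84.4 and 87.9 FPKM in SK/EPI, 137, 134 and 138 FPKM in siControl, and 114, 119 and 117 FPKM in siBCRP. NEAT1 was at 38.8, 36.7 and 35.4 FPKM, 52.0, 47.3 and 47.7 FPKM, 80.0, 81.3 and 81.0 FPKM, and 67.9, 69.3 and 66.8 FPKM in the same order. For both genes neither comparison overlapped. MALAT1 rose in SK/EPI by 0.41 ± 0.11 and fell after siBCRP by 0.22 ± 0.02 (limma, adjusted p = 0.011 and 0.00035). NEAT1 rose by 0.40 ± 0.05 and fell by 0.24 ± 0.02 (limma, adjusted p = 0.00014 in each). The third member of the list, CRNDE, fell in both comparisons, by 0.35 ± 0.07 and 0.23 ± 0.07, and the second of these calls was lost without replicate 1 or 2 of either group (limma, adjusted p = 0.069 to 0.12).

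Of 10 genes for paraspeckle proteins, 7 fell and 2 rose in SK/EPI, and 5 fell and none rose after siBCRP. Of all tested genes 37.0% were lower and 37.9% higher in SK/EPI, and 18.7% and 19.4% after siBCRP. SFPQ, a core paraspeckle protein, fell in both, by 0.51 and 0.16. NUDT21, a subunit of the cleavage factor that selects polyadenylation sites, rose by 0.32 in SK/EPI and fell by 0.76 after siBCRP. NONO, which pairs with SFPQ, rose by 0.16 in SK/EPI, and its difference of 0.06 after siBCRP did not pass (limma, adjusted p = 0.12).

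**Figure D1:**
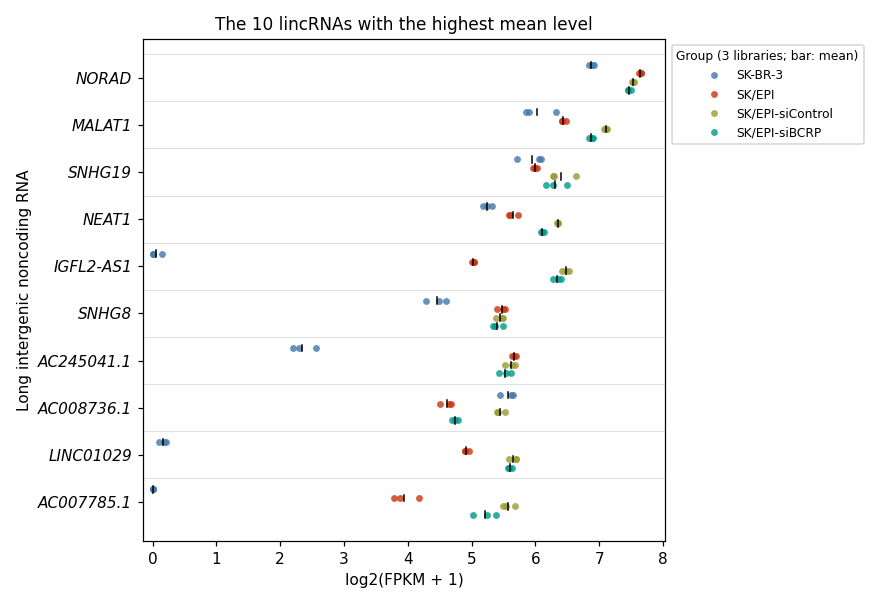
Levels of the 10 lincRNAs with the highest mean over the 4 groups, as log2(FPKM + 1) on the horizontal axis, 1 point for each of the 12 libraries and a bar for the mean of each group. NORAD is highest in every group, while IGFL2-AS1, LINC01029 and AC007785.1 lie near 0 only in SK-BR-3.

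The other 7 of the 10 highest were of different kinds. SNHG19 and SNHG8 are hosts of snoRNAs. SNHG19 was at a mean of 61.4 ± 8.56 FPKM in SK-BR-3 and 62.8 ± 1.57 FPKM in SK/EPI (SD, n = 3), with overlapping libraries. SNHG8 was at 21.4, 23.3 and 18.5 FPKM in SK-BR-3 and at 45.0, 41.1 and 43.8 FPKM in SK/EPI, and rose by 1.01 ± 0.08 (limma, adjusted p = 8.2e-06). IGFL2-AS1, AC007785.1, LINC01029, AC245041.1 and AC008736.1, described below, completed the group.

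In SK/EPI against SK-BR-3, 264 of the 281 lincRNAs passed the filter on low values and were tested, and 208 passed at an adjusted p under 0.05, 135 higher and 73 lower in SK/EPI. Over all 15823 tested genes 74.9% passed (37.9% higher and 37.0% lower), and over tested genes of any type at 2 FPKM or more 80.2% passed, so the 78.8% of lincRNAs lay between these shares. Of tested protein-coding genes with a highest group mean of 2 to 10 FPKM, 77.4% passed (41.1% higher and 36.4% lower). The median log2 fold change was 0.30 over the 264 lincRNAs and 0.01 over all tested genes, and with limma voom on recovered reads it was 0.51 and 0.10. Because 3 of the 4 groups used by the rule were SK/EPI cells, these medians are a description. Of the 89 lincRNAs at 2 FPKM or more in both groups, 35 were higher, 27 were lower and 27 did not pass. The median over these 89 was 0.15. A log2 change of 1 or more was passed by 62 of the 264 upward and 36 downward, and by 14.4% of all tested genes in either direction. Among the 11411 tested genes of any type at 2 FPKM or more, 1165 passed it upward and 948 downward. The 3 libraries of one group did not overlap those of the other for 205 lincRNAs, and for 77.7% of all tested genes.

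The lincRNAs with the largest rises in SK/EPI were close to absent from SK-BR-3. IGFL2-AS1 (chr19:46189166-46203083, minus strand) was at 0.108, 0 and 0 FPKM in SK-BR-3 and at 31.0, 31.7 and 32.0 FPKM in SK/EPI. With 3 reads in all SK-BR-3 libraries, its ratio was 976 (95% exact interval for counting error alone, 334 to 4735), and its fitted change of 4.98 depends on the pseudocount. AC007785.1 (chr19:46101122-46196218, plus strand), whose gene body overlaps that of IGFL2-AS1 on the other strand without a shared exonic base, had no read in SK-BR-3. It was at 13.7, 12.8 and 17.0 FPKM in SK/EPI, at least 28.2-fold above the level of 3 reads per library. IGFL1, which encodes an insulin growth factor-like protein and is the coding gene nearest to IGFL2-AS1 at a distance of 26669 bases, rose from a mean of 1.33 ± 0.490 FPKM to 69.3 ± 6.25 FPKM. These 3 genes of chromosome 19 thus rose together. The coding gene whose body AC007785.1 overlaps is another, IGFL3, which was below 0.1 FPKM in every group mean.

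A second pair lay on the long arm of chromosome 18, 693398 bases or more from the nearest coding gene, GALR1, which had no read in any library. LINC01029 (chr18:77971294-77993722, minus strand) was at 0.150, 0.132 and 0.0752 FPKM in SK-BR-3 and at 28.9, 30.1 and 28.6 FPKM in SK/EPI. AC134978.1 (chr18:77983020-77986610, same strand), which sits inside LINC01029 without a shared exonic base, was at 0, 0.141 and 0 FPKM and at 18.4, 18.8 and 15.5 FPKM. Its 2 reads in SK-BR-3 gave a ratio of 367 (101 to 3034). Both were separated without overlap, with fitted changes of 4.75 ± 0.05 and 4.15 ± 0.09 (limma, adjusted p = 2.3e-10 and 6.5e-09).

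LINC01151 on chromosome 8 had no read in SK-BR-3 and was at 27.9, 31.1 and 30.9 FPKM in SK/EPI, at least 100.1-fold above the level of 3 reads per library. Its nearest coding gene, ZHX2, a zinc-finger transcriptional repressor 87288 bases away, rose by 1.89 from 14.9 ± 0.859 FPKM to 57.9 ± 0.800 FPKM. AL161431.1 (chr13:109269634-109278512, plus strand) was at 0.0867, 0.0653 and 0.0413 FPKM and at 15.0, 13.7 and 13.4 FPKM, a rise of 3.82 ± 0.06 (limma, adjusted p = 1.5e-09). MYO16, 61627 bases from it, was below 0.1 FPKM in the mean of every group. AC245041.1 (chr10:47970043-47973496, minus strand), among the 10 highest genes, rose by 3.31 ± 0.09, from 3.59, 3.89 and 4.89 FPKM to 50.6, 49.9 and 48.5 FPKM. It lies within AC245041.2, which rose by 3.30 ± 0.06 and has a near-identical stretch of 1971 bases in ANXA8, so the source of the reads of AC245041.2 is uncertain.

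**Figure D2:**
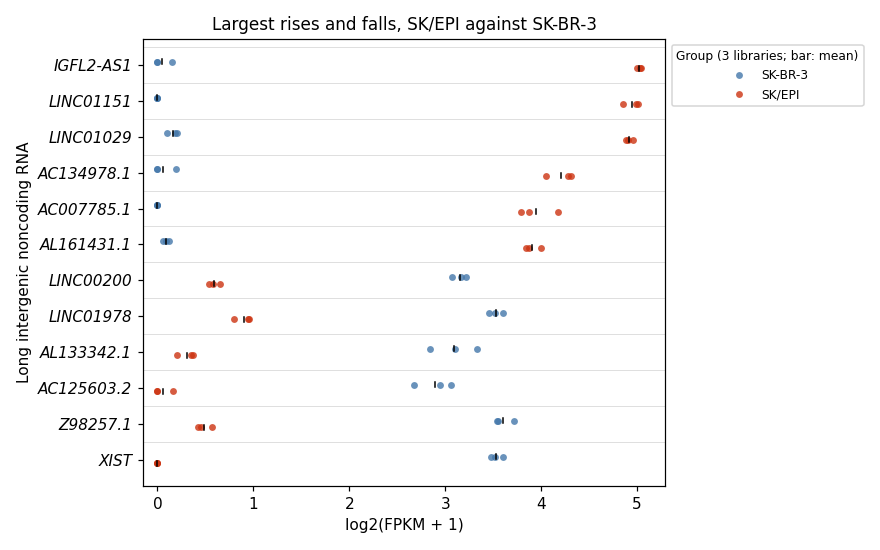
The 6 largest rises and 6 largest falls among lincRNAs in SK/EPI against SK-BR-3, as log2(FPKM + 1) in each of the 3 libraries per group, with a bar for the mean. None of the 12 genes overlaps between the groups, and LINC01151, AC007785.1 and XIST have 1 group entirely at 0.

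XIST fell most. This RNA coats and silences the inactive X chromosome. It was at 11.2, 10.1 and 10.5 FPKM in SK-BR-3, and no read was counted in the 3 SK/EPI or the 3 siControl libraries. The level in SK-BR-3 was at least 1673-fold above that of 3 reads per SK/EPI library. Its exons share 30.5% of their bases with TSIX on the opposite strand, which these libraries cannot separate from it. CHIC1, the nearest coding gene at 133549 bases, fell by 0.52 (limma, adjusted p = 4.8e-05).

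The other large falls ended between 0 and 1 FPKM in SK/EPI. Z98257.1 (chr1:20154338-20160568, plus strand) was at 10.6, 12.1 and 10.7 FPKM in SK-BR-3 and at 0.367, 0.482 and 0.344 FPKM in SK/EPI. AC125603.2 (chr12:116661582-116698065, plus strand) went from 6.69, 7.33 and 5.39 FPKM to 0, 0 and 0.122 FPKM, a ratio of 159 (43.7 to 1320.4) with 2 reads in SK/EPI. AL133342.1 (chr20:48821688-48849458, minus strand) lies within PREX1, a gene for an exchange factor of the GTPase Rac, and went from 7.58, 9.08 and 6.17 FPKM to 0.279, 0.151 and 0.292 FPKM. PREX1 itself fell by 4.43, from 104.8 ± 1.84 FPKM to 3.91 ± 0.212 FPKM. LINC01978 (chr17:79919357-79925462, plus strand) fell by 2.63 ± 0.07 and LINC00200 (chr10:1159768-1164789, plus strand) by 2.56 ± 0.06 (limma, adjusted p = 1.4e-08 and 1.2e-08). Their nearest coding genes differed. TBC1D16 beside LINC01978 fell by 0.67, and ADARB2 beside LINC00200 was below 0.1 FPKM in every group mean.

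After siBCRP, 258 of the 281 lincRNAs were tested and 100 passed, 32 higher and 68 lower than in siControl. The share of 38.8% stood beside 38.1% of all 16298 tested genes, of which 19.4% were higher and 18.7% were lower. It stood beside 47.2% of tested genes of any type at 2 FPKM or more, and beside 38.6% of tested protein-coding genes with a highest group mean of 2 to 10 FPKM, of which 17.9% were higher and 20.7% were lower. The median log2 fold change was -0.10 over the lincRNAs and -0.00 over all tested genes. Changes were small. 1 lincRNA, LINC00294, passed with a log2 change of at least 1, as did 0.411% of all tested genes. Libraries of the groups did not overlap for 118 lincRNAs, and for 50.9% of all tested genes.

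LINC00294 (chr11:33076149-33079454, plus strand) was at 1.62, 1.91 and 1.82 FPKM in siControl and at 4.66, 4.56 and 4.69 FPKM in siBCRP. It rose by 1.02 ± 0.06 (limma, adjusted p = 1.9e-05). The gene lies within TCP11L1, which rose by 0.57, and 17.4% of its exonic bases are shared with the pseudogene PIGCP1 on the opposite strand. AL136372.2 (chr1:188013642-188144763, plus strand), more than 1 Mb from any coding gene, was at 5.91, 7.08 and 6.94 FPKM and at 13.8, 13.8 and 13.7 FPKM. LINC01405 (chr12:110936585-110958208, plus strand) was at 0.288, 0.932 and 0.898 FPKM and at 1.96, 2.22 and 2.58 FPKM. Each rose by 0.95, with SE of 0.06 and 0.16 (limma, adjusted p = 3.3e-05 and 0.0033).

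The next rises were smaller, and those of LINC02575 and AP001505.1 were nearer the limit of the test. LINC02575 (chr21:44485577-44490288, plus strand) was at 0.192, 0.633 and 0.4996 FPKM in siControl and at 0.958, 1.56 and 2.15 FPKM in siBCRP, and its call was lost without the filter on low values (limma, adjusted p = 0.012 and 0.063). AC125807.2 (chr12:3041437-3044950, plus strand) begins 764 bases downstream of TEAD4, a transcription factor of the Hippo pathway, and was at 2.11, 2.68 and 2.62 FPKM and at 4.20, 4.40 and 4.75 FPKM. It rose by 0.65 ± 0.08, while the difference of 0.06 in TEAD4 did not pass (limma, adjusted p = 0.00065 and 0.14). AP001505.1 (chr21:44978832-44979274, plus strand) rose by 0.59 ± 0.18, a call that was lost when any 1 library other than siControl replicate 1 was left out (limma, adjusted p = 0.071 to 0.1).

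The 6 largest falls after siBCRP lay between -0.85 and -0.71 on the log2 scale. AL353803.5, a gene of 141 exonic bases on chromosome 9, was at 6.22, 8.19 and 8.26 FPKM in siControl and at 5.10, 2.21 and 4.40 FPKM in siBCRP, and its call was lost without siControl replicate 2 or 3 (limma, adjusted p = 0.073 and 0.074). BLACAT1 (chr1:205434886-205437879, minus strand), a lincRNA named for bladder cancer, was at 3.60, 3.35 and 3.50 FPKM and at 1.44, 1.35 and 1.93 FPKM. It fell by 0.81 ± 0.09 (limma, adjusted p = 0.00043) and shares 11.6% of its exonic bases with LEMD1 on its own strand. AC007383.2, which shares 33.6% of its exonic bases with INO80D on the opposite strand, fell by 0.78 ± 0.13 from 1.82, 1.88 and 1.76 FPKM to 0.547, 0.387 and 1.05 FPKM. LINC02015 (chr3:177816865-177899224, plus strand) fell by 0.78 ± 0.07 from 2.95, 2.83 and 3.25 FPKM to 1.20, 1.32 and 1.48 FPKM. AC104986.2 on chromosome 8 fell by 0.77 ± 0.13, with VPS13B, 222 bases away on the other strand, at a difference of -0.14 that did not pass (limma, adjusted p = 0.0033 and 0.054).

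HIF1A-AS2 (chr14:61715558-61751097, minus strand) lies opposite HIF1A, the gene for the hypoxia-inducible factor subunit. It was at 0.355, 0.416 and 0.197 FPKM in SK-BR-3, 1.15, 1.04 and 1.40 FPKM in SK/EPI, 3.29, 3.84 and 2.75 FPKM in siControl, and 1.73, 1.75 and 1.36 FPKM in siBCRP. It rose in SK/EPI by 0.73 ± 0.08 and fell after siBCRP by 0.71 ± 0.11 (limma, adjusted p = 9.1e-05 and 0.0019). HIF1A rose in SK/EPI by 1.07, from 25.4 ± 1.14 FPKM to 54.5 ± 1.06 FPKM. After siBCRP HIF1A was at 93.4 ± 2.48 FPKM against 90.0 ± 1.37 FPKM, a difference that did not pass (limma, adjusted p = 0.15). The 2 genes do not share an exonic base.

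At the IGFL locus of chromosome 19 both lincRNAs and the coding gene fell. IGFL2-AS1 was at 88.2, 84.3 and 91.1 FPKM in siControl and at 76.4, 80.6 and 83.4 FPKM in siBCRP, a fall of 0.13 ± 0.04 (limma, adjusted p = 0.037) that was lost without replicate 1 of either group, siBCRP replicate 2 or siControl replicate 3. AC007785.1 was at 45.3, 50.1 and 43.9 FPKM and at 40.5, 31.6 and 36.9 FPKM, a fall of 0.35 ± 0.09 that was lost without siControl replicate 2 (limma, adjusted p = 0.019 and 0.058). Neither overlapped between groups. IGFL1 fell by 0.92, from 122 ± 3.54 FPKM to 64.4 ± 4.13 FPKM.

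**Figure D3:**
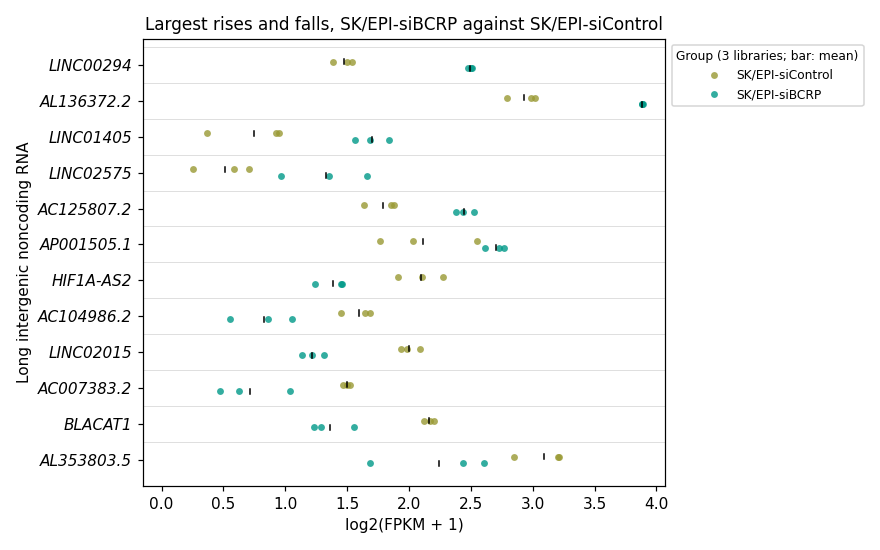
The 6 largest rises and 6 largest falls among lincRNAs in SK/EPI-siBCRP against SK/EPI-siControl, as log2(FPKM + 1) in each of the 3 libraries per group, with a bar for the mean. The groups do not overlap for any of the 12 genes, but LINC02575, AP001505.1 and AL353803.5 spread widely within a group.

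Of the lincRNAs tested in both tables, 19 were higher in both comparisons and 12 were lower in both. There were 42 that were higher in SK/EPI and lower after siBCRP, and 7 with the reverse. Of the 248 tested in both, these were 7.66%, 4.84%, 16.9% and 2.82%, against 8.07%, 7.19%, 8.51% and 8.51% of 15152 genes tested in both. Because the rule used these levels, the shares are a description. The comparisons share no library. Among those with opposite directions, LINC00294 was at 11.3, 10.9 and 11.7 FPKM in SK-BR-3 and at 3.64, 3.20 and 3.23 FPKM in SK/EPI, a fall, and rose after siBCRP. LINC02575 fell in SK/EPI by 1.07 ± 0.07 and rose after siBCRP. BLACAT1 had risen by 1.38 ± 0.08, from 0.0842, 0.0370 and 0.0526 FPKM to 2.08, 1.52 and 1.69 FPKM, and fell after siBCRP. AC008736.1 (chr19:32687089-32691750, minus strand) moved down in both. It was at 42.6, 48.9 and 48.0 FPKM in SK-BR-3, 21.7, 24.6 and 24.0 FPKM in SK/EPI, 41.3, 41.6 and 45.0 FPKM in siControl, and 26.6, 25.7 and 24.9 FPKM in siBCRP. The falls were 0.96 ± 0.06 and 0.71 ± 0.04 (limma, adjusted p = 3.5e-06 and 2.1e-05). It starts beside NUDT19, a gene for a nudix hydrolase that reads in the other direction, and NUDT19 fell by 1.17 and 0.74.

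**Figure D4:**
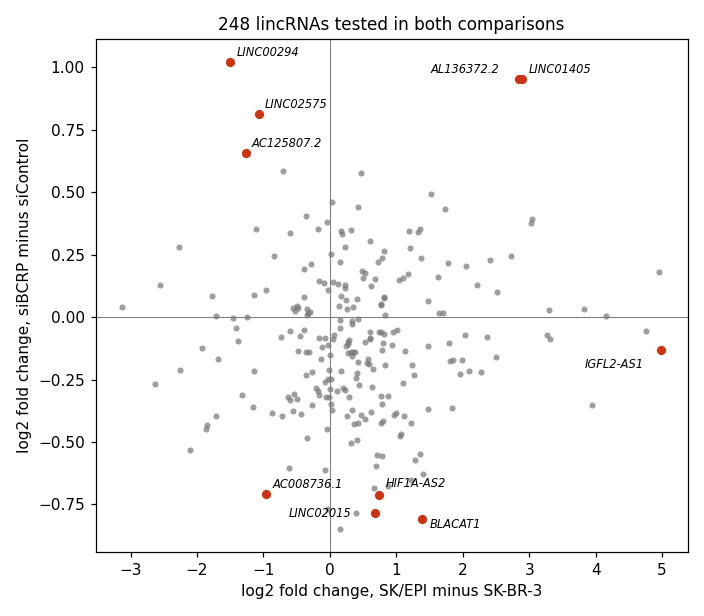
Log2 fold change of the 248 lincRNAs tested in both tables, SK/EPI minus SK-BR-3 on the horizontal axis and siBCRP minus siControl on the vertical axis, with 10 genes named in the text in red. The horizontal range is several times the vertical one, and LINC00294, LINC02575 and AC125807.2 stand at the upper left.

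The list of snoRNA hosts, whose introns are processed to the small RNAs that guide modification of ribosomal RNA, held 7 of the 281. Of 6 tested in SK/EPI, 4 rose and none fell, and after siBCRP none of 6 passed the test, although SNHG9 passed without siControl replicate 1 (limma, adjusted p = 0.31 and 0.024). In all, 74.9% of tested genes were called in SK/EPI, 37.9% higher, and 38.1% after siBCRP. EPB41L4A-AS1 rose most, by 1.48 ± 0.05, from 3.64, 3.33 and 3.60 FPKM to 10.9, 12.1 and 11.9 FPKM, with no overlap. Because 49.6% of its exonic bases are shared with EPB41L4A on the opposite strand, which rose by 0.74, its own part in these reads cannot be told apart. Among the others SNHG9 rose by 0.60 ± 0.11 and SNHG15 by 0.25 ± 0.03 (limma, adjusted p = 0.0012 and 0.00021). SNHG25 was too low to be tested. Of 16 protein genes for microRNA and snoRNA processing, 3 rose and 5 fell in SK/EPI, where 74.9% of all tested genes were called, and 8 rose and 4 fell after siBCRP, where 38.1% were. TARBP2 and AGO2, of the machinery that loads microRNAs, rose after siBCRP by 0.64 and 0.50, and DICER1, which cuts their precursors, fell by 0.61.

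The list of microRNA hosts held 6 of the lincRNAs and did not include every host counted above. Of these 6, 3 rose and 2 fell in SK/EPI, and after siBCRP 2 fell and none rose. Over all tested genes 37.9% were higher and 37.0% lower in SK/EPI, and 19.4% and 18.7% after siBCRP. MIR503HG, at a mean of 2.54 ± 0.173 FPKM in SK-BR-3 and 2.23 ± 0.171 FPKM in SK/EPI, did not pass in either comparison (limma, adjusted p = 0.11 and 0.15). LINC00472, the host of miR-30a and miR-30c, was at 0.329, 0.338 and 0.305 FPKM in SK-BR-3 and at 2.27, 2.12 and 1.97 FPKM in SK/EPI. It rose by 1.24 ± 0.05 (limma, adjusted p = 3.1e-07). MIR200CHG, the host of miR-200c and miR-141, which maintain the epithelial state, was at 7.56, 6.96 and 4.05 FPKM and at 11.7, 10.8 and 11.9 FPKM, a rise of 0.83 ± 0.18 (limma, adjusted p = 0.0034). MIR4458HG rose by 0.24 ± 0.09 with overlapping libraries.

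MIR210HG, whose microRNA is induced by hypoxia, and MIR22HG fell in both comparisons. MIR210HG was at 2.71, 2.60 and 1.90 FPKM in SK-BR-3, 0.572, 0.501 and 0.506 FPKM in SK/EPI, 1.53, 1.40 and 1.22 FPKM in siControl, and 0.952, 0.728 and 0.891 FPKM in siBCRP. The falls were 1.15 ± 0.10 and 0.36 ± 0.07 (limma, adjusted p = 1.3e-05 and 0.0068), the second lost without the filter on low values (adjusted p = 0.056). MIR22HG was at 5.95, 6.23 and 6.07 FPKM, 3.95, 3.50 and 4.01 FPKM, 4.51, 5.03 and 5.46 FPKM, and 3.54, 3.35 and 3.97 FPKM in the same order. It fell by 0.56 ± 0.06 and 0.38 ± 0.08 (limma, adjusted p = 4.3e-05 and 0.0072). For both hosts all libraries of one group lay below those of the other in each table.

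On the list of stress-, p53- and NRF2-responsive lincRNAs, NORAD, NEAT1 and TP53TG1 rose in SK/EPI and LINC00294 fell, where 74.9% of all tested genes were called. TP53TG1, a target gene of p53, rose by 0.57 ± 0.11, from 2.71, 3.68 and 3.23 FPKM to 5.14, 6.06 and 4.59 FPKM. After siBCRP, where 38.1% of all tested genes were called, NEAT1 fell, LINC00294 rose, and NORAD and TP53TG1 did not pass.

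The list of lincRNAs with names from cancer studies held 6 of the 281, and 3 rose and 3 fell in SK/EPI, beside 37.9% and 37.0% of all tested genes. LINC01133 was at 0.0999, 0 and 0.0166 FPKM in SK-BR-3 and at 2.25, 2.40 and 2.44 FPKM in SK/EPI, and rose by 1.70 ± 0.06 (limma, adjusted p = 6.2e-08). LINC01315 rose in both comparisons, by 1.33 ± 0.13 and 0.34 ± 0.06. CASC9 on chromosome 8 fell from 16.4, 16.0 and 15.9 FPKM to 3.88, 3.38 and 4.02 FPKM, and by 0.43 ± 0.07 after siBCRP. UCA1, named for urothelial cancer, fell from 4.02, 4.27 and 3.58 FPKM to 0.725, 0.680 and 1.00 FPKM, by 1.46 ± 0.09 (limma, adjusted p = 1.9e-06), and 13.6% of its exonic bases are shared with LINC01764 on the opposite strand.

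Noncoding transcripts are cleared by the nuclear exosome and, when spliced and exported, by nonsense-mediated decay. Of 19 genes for the exosome and its adaptors, 9 rose and 7 fell in SK/EPI, where 74.9% of all tested genes were called, with EXOSC6 at 0.78 and EXOSC4 at 0.63 up and the subunit gene EXOSC2 at -0.53. After siBCRP, where 38.1% of all tested genes were called, 4 rose and 1, ZFC3H1, fell by 0.23. ZFC3H1 encodes a part of the complex that directs polyadenylated nuclear RNA to the exosome. Of 14 genes for nonsense-mediated decay, 9 fell and 1 rose in SK/EPI, with CASC3 at -1.45 and UPF3A at -1.19, beside 37.0% lower and 37.9% higher over all tested genes. After siBCRP 4 rose and 3 fell, beside 19.4% higher and 18.7% lower over all tested genes.

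The position of the lincRNAs was not used to choose them. The nearest protein-coding gene lay at a median of 6194 bases, against 36680 bases for all lincRNAs. Of the 281, 45 (16.0%) were divergent, starting within 2000 bases of a coding gene's start and reading away from it, against 6.49% of all lincRNAs. Another 52 (18.5%) overlapped the body of a coding gene, against 11.1%, and 21 (7.47%) lay within 5000 bases downstream of one on the same strand, against 3.64%. The remaining 163 had none of these arrangements. They merged into 249 loci at 100 kb, of which 23 held more than 1 lincRNA.

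For 191 lincRNAs tested in SK/EPI, the nearest coding gene lay within 100 kb and was tested too. The signs of the 2 log2 fold changes were the same for 133 pairs (69.6%), with Pearson r = 0.57 across pairs. For pairs of neighbouring coding genes at 2 FPKM or more the share was 64.5% and r = 0.33. Pairs share libraries, and some share reads or a coding neighbour, so these values are a description. All 19 lincRNAs downstream of a coding gene on its strand had the sign of their nearest coding gene. The nearest gene was not required to be the one that set the position. The signs were the same for 31 of 45 divergent pairs, for 32 of 43 overlapping pairs and for 51 of 84 others. After siBCRP 113 of 186 pairs had the same sign (60.8%, r = 0.33), against 53.6% and r = 0.11 for coding pairs. By arrangement these were 14 of 16 downstream, 30 of 45 divergent, 22 of 42 overlapping and 47 of 83 other pairs.

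Examples chosen after their values were seen show the range. AL391095.2, 1802 bases downstream of LBP, rose by 1.83 in SK/EPI while LBP, which encodes the lipopolysaccharide-binding protein, rose by 6.08. After siBCRP LBP fell by 1.05, and the difference of -0.36 in AL391095.2 did not pass. AC061992.1 and SOCS3, a feedback inhibitor of cytokine signalling, form a divergent pair that rose by 1.48 and 3.65 and fell by 0.37 each after siBCRP. AC009414.2, divergent from CRIM1, rose by 2.27 beside a rise of 2.92. In the opposite sense, AC092171.4 fell by 1.32 beside a rise of 0.39 in TNRC18, from which it diverges.

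**Figure D5:**
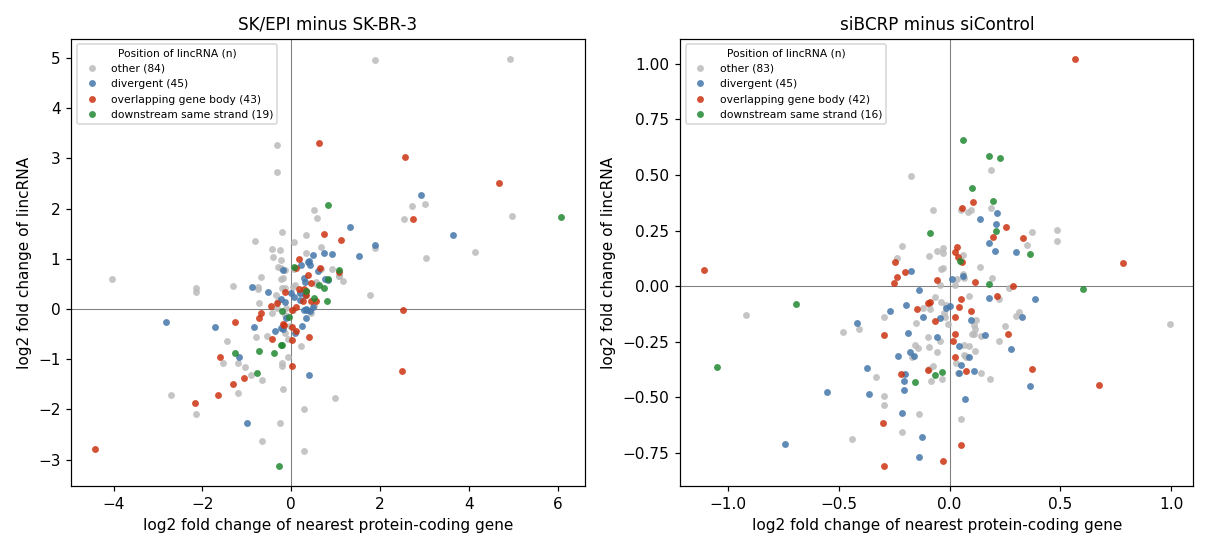
Log2 fold change of each lincRNA (vertical axis) against that of its nearest protein-coding gene within 100 kb (horizontal axis), for SK/EPI minus SK-BR-3 on the left (191 pairs) and siBCRP minus siControl on the right (186 pairs), coloured by position. On the left all 19 downstream lincRNAs lie in the lower left or upper right quadrant, and the grey points of other positions spread into all 4.

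Promoters, from 250 bases before to 50 bases after the annotated start, were matched in RefSeq (GRCh38.p14) for 88 of the 281 lincRNAs, 63 by the same symbol and the rest by gene identifier. Their median ratio of observed to expected CpG was 0.76, against 0.85 for coding genes at 2 FPKM or more and 0.58 for all promoters. Both strands were searched for TATAAA (the TATA box), CCAAT (the CCAAT box), TGANTCA (the AP-1 site), TGACNNNGC (the core of the antioxidant response element), CACGTG (the E-box) and CCGCCC (the GC box). TGANTCA and TGACNNNGC can overlap. CCAAT was in 37 of the 88 (42.0%) against 35.7% of all 27305 promoters, TATAAA in 5 (5.68%) against 11.95%, and TGANTCA in 4 (4.55%) against 7.76%. TGACNNNGC was in 15 (17.0%) against 13.6%, and CACGTG in 7 (7.95%) against 7.43%. Coding genes at 2 FPKM or more held TATAAA in 5.10% and TGANTCA in 4.26%, close to the shares of the lincRNAs, which rest on 5 and 4 promoters. The coding genes held CCAAT in 37.0%, TGACNNNGC in 15.4% and CACGTG in 10.6%. The GC box was in 56 of the 88 (63.6%) against 44.6% of all promoters and 72.2% of coding genes. A match describes letters and does not show a bound site.

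Promoters of 2 named lincRNAs with the most matches are shown 5' to 3' with all of these motifs but the GC box in capitals. SNHG19, whose level did not pass in either comparison, holds TATAAA shortly before its start and CCAAT 3 times, counting the complement ATTGG. LINC00472, which rose in SK/EPI, holds CCAAT 5 times and TGACNNNGC once, and 2 of its CCAAT matches overlap on opposite strands as CCAATTGG.
SNHG19 (chr16:2155309-2155608, minus strand): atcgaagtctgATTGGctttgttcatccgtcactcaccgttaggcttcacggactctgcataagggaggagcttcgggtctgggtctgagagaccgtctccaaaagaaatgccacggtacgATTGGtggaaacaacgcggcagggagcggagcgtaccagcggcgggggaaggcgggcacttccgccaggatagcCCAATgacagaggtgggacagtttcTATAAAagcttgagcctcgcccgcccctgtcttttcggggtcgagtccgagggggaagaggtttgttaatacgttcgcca
LINC00472 (chr6:71420696-71420995, minus strand): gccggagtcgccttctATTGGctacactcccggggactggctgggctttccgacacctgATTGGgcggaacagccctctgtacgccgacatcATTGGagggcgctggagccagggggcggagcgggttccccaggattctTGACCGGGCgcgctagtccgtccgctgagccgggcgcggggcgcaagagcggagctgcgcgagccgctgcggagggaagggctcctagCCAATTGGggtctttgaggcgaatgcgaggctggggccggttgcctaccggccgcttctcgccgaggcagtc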

How the data were processed

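The authors deposited 2 tables of expression values for the same 58735 genes, whose header names no unit. Multiplied by merged exon length in GENCODE 29 (GRCh38), every value above 0 was a whole multiple of a step fixed for its library (100.0% within 0.02), and library sums differed, so the deposited values were read as FPKM and reads per gene were recovered from the steps. The submitters' processing notes name HISAT2 2.0.5, featureCounts 1.5.0-p3, DESeq2 1.16.1 and hg38, without roles. The strand setting of the counting is not given in the sources used here.

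Groups came from the labels. A gene was tested when it had, scaled to the median library, 10 reads or more in 3 libraries and 15 or more in total. Within a table, limma 3.58.1 in R 4.3.3 estimated the group difference on log2(FPKM + 1), using eBayes with a trend, with Benjamini-Hochberg adjustment over all tested genes and a threshold of 0.05. The method was tested on simulated data. The label states triplicates but not separate cultures, so p-values measure the spread between these libraries, which may be technical. Replicate libraries differed by more than counting noise (chi-square per degree of freedom 1.64 to 4.27). Values are mean ± SD over 3 libraries. Ratios and lower bounds from few reads cover counting error only.

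Shared exonic bases were found with bedtools 2.31.1, and near-identical stretches (98% over 200 bases) with blastn 2.17.0+. The members, gene lists and named genes were chosen with earlier results of these data known. Named were the 10 highest lincRNAs, the 6 largest rises and falls per comparison among those with an adjusted p under 0.05 and no overlap between groups, with the nearest coding gene of each, the 4 of each list with the largest change, the 4 largest changes of opposite direction, the 3 on each side of the threshold, and ABCG2. Values of other genes on the lists were chosen after being seen. Alternatives were other pseudocounts, filters, scalings, tests, memberships, the replicate block and leaving out each library. 1 listed gene is not reported here.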

Additional observations from a re-analysis of the deposited data

How the results depend on the processing

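With at least 10 reads required in every library, 178 lincRNAs were tested in SK/EPI and 136 passed (82 higher), fewer because genes near 0 in one group drop out. A log2 change of at least 1 left 98 (62 higher, 36 lower) in SK/EPI and 1 (1 higher, 0 lower) after siBCRP. limma voom on the recovered reads with that threshold left 140 (97 higher, 43 lower) in SK/EPI, and 11 (4 higher, 7 lower) after siBCRP. This combination, and the restriction that follows, were chosen after seeing the data. Among lincRNAs at 2 FPKM or more in both groups compared, 62 passed in SK/EPI (35 higher, 27 lower) and 64 after siBCRP (21 higher, 43 lower). A membership threshold of 1 FPKM gave 529 lincRNAs, of which 314 passed in SK/EPI (112 lower), and one of 5 FPKM gave 88, of which 77 passed in SK/EPI (52 higher, 25 lower) and 41 after siBCRP (16 higher, 25 lower). Without a filter on low values 51 passed after siBCRP (15 higher, 36 lower), with the adjustment over 34542 genes. Leaving out each library in turn gave 197 to 206 calls in SK/EPI and 78 to 93 after siBCRP. Same-numbered libraries showed no strong tendency to deviate together (r from -0.05 to 0.05), which does not exclude that they were prepared as pairs. With the replicate block 211 passed in SK/EPI and 101 after siBCRP, of which 204 and 85 were also called without it. Of 1168 recomputed changes of named lincRNAs, 1128 kept their direction and side of the threshold, 29 lost and 11 gained a call, and 0 called changes reversed. IGFL2-AS1 after siBCRP was among those lost (limma, adjusted p = 0.12 without the filter, and 0.082 to 0.11 in 4 fits that left out a library). The cause was not tested. Scalings moved the median of all tested genes by less than 0.1.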

Other observations

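SK/EPI and SK/EPI-siControl are both SK/EPI cells but stand in different tables, so their levels are set side by side without a test. Of 231 lincRNAs at 2 FPKM or more in either, 13 (5.63%) were higher in siControl by 1 or more on the log2(FPKM + 1) scale and 4 (1.73%) were lower, against 1.38% and 1.20% of 9639 protein-coding genes. The median difference was 0.20 over the lincRNAs and 0.01 over the coding genes. IGFL2-AS1 was at 31.6 ± 0.489 FPKM in SK/EPI and 87.9 ± 3.39 FPKM in siControl, and AC007785.1 of the same locus at 14.5 ± 2.23 FPKM and 46.5 ± 3.27 FPKM. LINC01405 was at 8.58 ± 0.407 FPKM and 0.706 ± 0.362 FPKM. Transfection, table and culture cannot be told apart here.

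Lengths, exon models and neighbours are those of GENCODE 29, and 75 of the 281 lincRNAs share at least 1 exonic base with another gene. A near-identical stretch in another gene was found for 17. How reads of these genes were assigned was not tested. The depth limits the weakest lincRNAs: 17 in SK/EPI with SK-BR-3 and 23 in the siRNA table had too few reads to be tested.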
